A study of Mus musculus with 8 samples.

Results

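The 9 genes described here carry out the handling and sensing of retinoids, the derivatives of vitamin A, in sorted mouse esophageal epithelium. They were chosen by name from a list of retinoid enzymes, binding proteins and receptors, and make up 9 of the 55276 gene symbols in the deposited count table. All 9 were found, and all 9 passed the filter on low counts. By role they are the retinol transporter Stra6, the short-chain dehydrogenases Rdh10, Dhrs9 and Dhrs3, the retinal dehydrogenase Aldh1a3, the retinoic acid hydroxylase Cyp26b1, the carrier Crabp2 and the nuclear receptors Rara and Rarg. Gene positions are given on GRCm38 from GENCODE M21, and no exon of the 9 overlaps an exon of another annotated gene.

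Retinol reaches epithelial cells from the blood and is oxidised first to retinal and then to retinoic acid, which cytochromes of the Cyp26 family break down. Retinoic acid binds receptors of the RAR family, which act on DNA as dimers with RXR receptors, and cellular binding proteins carry retinoids between enzymes and the nucleus. Vitamin A is known for holding stratified linings such as that of the esophagus in a non-keratinised or moderately keratinised state, since its lack leads to excess keratinisation.

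RNA was sequenced in bulk from live cells, negative for DAPI and positive for surface integrin beta-1, that were sorted on their Cyto-ID signal, from a dye that marks autophagic vesicles. There were 4 Cyto-ID Low libraries (little dye) and 4 Cyto-ID High libraries (much dye), a pair from each of 2 female and 2 male C57BL6 mice aged 14 to 15 weeks, called Female1, Female2, Male1 and Male2. The mice carried no stated mutation and received no stated treatment, and the Low and High labels name the sorting gate. By its title the study concerns basal cells rich in autophagic vesicles, their proliferation and their self-renewal.

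Libraries held 26285150 to 29301054 counts. Values are given as CPM, the usual counts per unit of library size, with TMM (trimmed mean of M values) adjusting the library sizes, and groups as mean ± SD with n = 4. A gene is said to have risen or fallen where edgeR's quasi-likelihood test, with sex as a covariate and Benjamini-Hochberg adjustment over 17344 genes, gave an adjusted p under 0.05. The sorted cells carried the markers of squamous epithelium in both fractions. The summed level of 8 basal keratinocyte markers was 20930 to 24800 CPM in Low and 2722 to 4461 CPM in High, and all 8 fell. That of 8 suprabasal markers was 8745 to 25290 CPM in Low and 138000 to 236500 CPM in High, and all 8 rose. The part of this difference in epithelial layer markers in the results below was not tested. The High library of Male2 stood apart, with 22208 genes detected against 24820 to 28266 in the others and the lowest levels of fibroblast, leukocyte, endothelial and muscle markers, and both Female2 libraries carried gastric transcripts. In bulk samples fewer cells of a type and less RNA per cell cannot be told apart.

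Of the 9 retinoid genes 4 rose in Cyto-ID High (Crabp2, Dhrs9, Rdh10 and Dhrs3), 2 fell (Rara and Cyp26b1) and 3 did not pass (Rarg, Stra6 and Aldh1a3). Over all 17344 genes 48.7% passed, 23.4% as higher and 25.3% as lower. The Low and High libraries did not overlap for 5 of the 9, beside 48.6% of all genes, so neither count sets the 9 genes apart from the rest of the transcriptome. Their median log2 fold change was 0.23, beside −0.09 over all genes. The smaller increases depended on the scaling. With total counts as the sole scaling, the median of all genes moved by −0.56 on the log2 scale and 20.5% of the passing genes were higher in place of 48.0%. Of the 4 genes only Crabp2 then passed as higher, beside 12.6% of all genes. Without both libraries of Male2 there were 3 higher and 1 lower, beside 20.4% and 20.7% of all genes. Without both libraries of Female2 there were 3 higher and 2 lower, beside 21.6% and 21.7%.

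**Figure D1:**
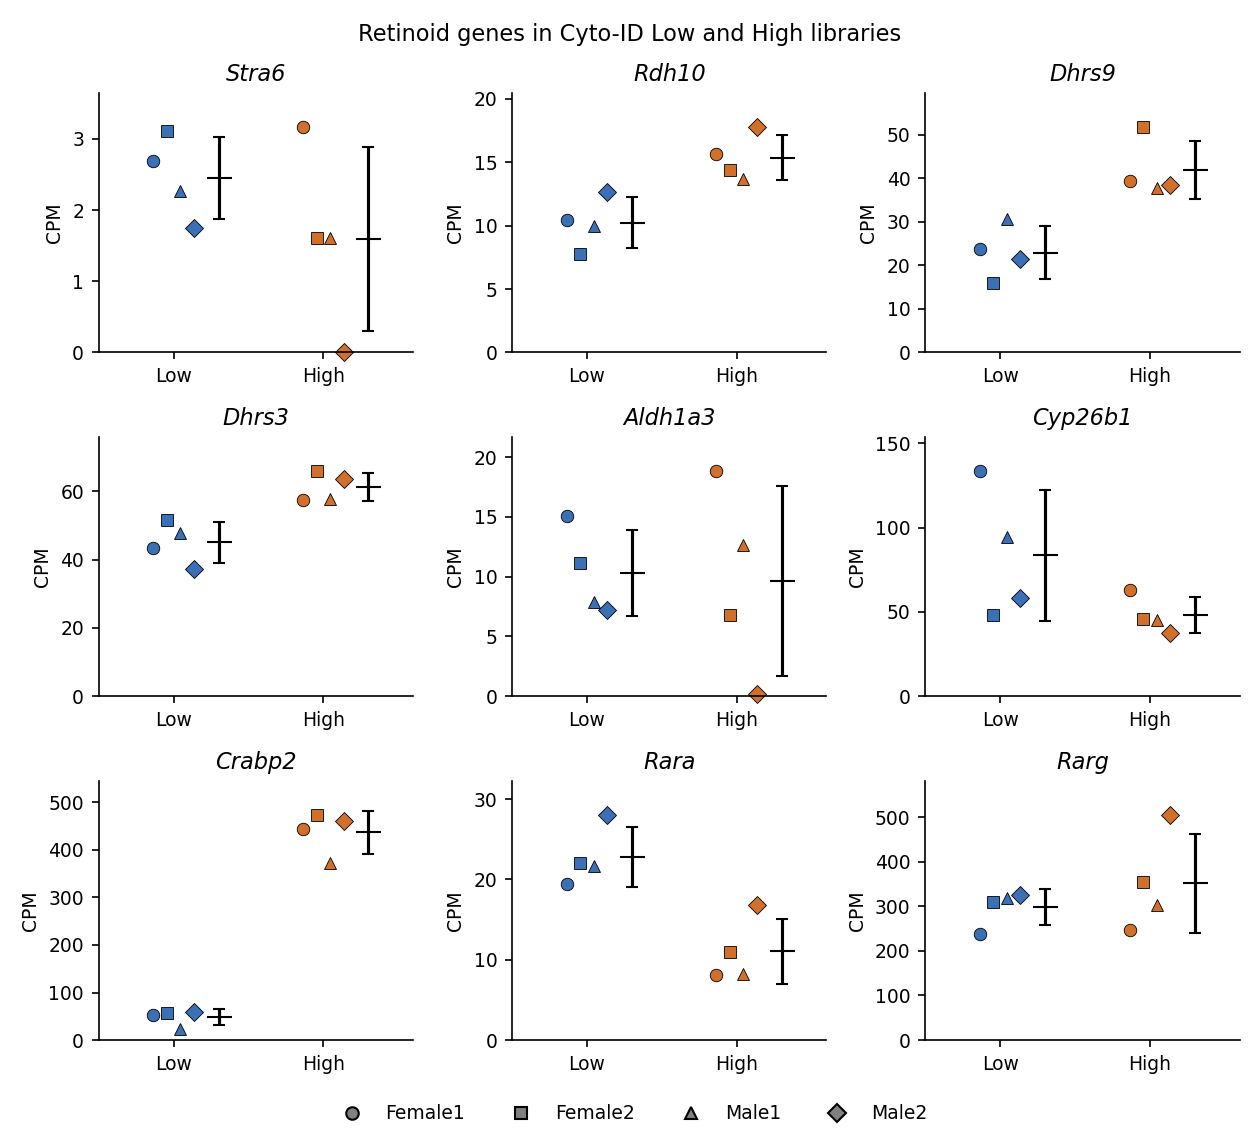
CPM (vertical axes, each from 0) of the 9 retinoid genes in the 4 Cyto-ID Low and 4 Cyto-ID High libraries, with a symbol for each animal and the mean ± SD of each fraction as a bar. Crabp2 stands at 372 to 474 CPM in High against 23.2 to 59.8 in Low, while Stra6 and Aldh1a3 are at or near 0 in the High library of Male2.

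Retinol uptake was represented by Stra6 (chr9:58063788-58153996, plus strand), the membrane receptor that takes retinol from its plasma carrier. It was the least abundant of the 9 genes per length. In Low it stood at 2.69 CPM (Female1), 3.11 (Female2), 2.27 (Male1) and 1.75 (Male2), and in High at 3.16, 1.61, 1.60 and 0 in the same order. The fractions overlapped, and the spread lay within High. The count of 0 in the High library of Male2 allows a level of up to 0.154 CPM, where 3 counts are taken as the limit and only counting error is covered. The log2 fold change was −0.74 (SE 0.68, adjusted p 0.407), and without the High library of Male2 it was −0.30 (adjusted p 0.458). Leaving out any other library gave −0.57 to −1.28, the largest without the High library of Male1.

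Retinol and retinal are interconverted by short-chain dehydrogenases. Rdh10 (chr1:16105774-16133734, plus strand), which oxidises retinol to retinal, measured 10.5, 7.75, 9.97 and 12.7 CPM in the Low libraries of Female1, Female2, Male1 and Male2, and 15.6, 14.4, 13.7 and 17.8 CPM in the High libraries. Each High library lay above every Low library, and the gene rose by 0.60 on the log2 scale (SE 0.17, adjusted p 0.0160). Without both libraries of Female2 the change was 0.52 (adjusted p 0.0540), and under total counts the change was 0.03 (adjusted p 0.884).

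Dhrs9 (chr2:69380445-69404533, plus strand), a dehydrogenase that can act on retinol and also on steroids, had 23.8, 15.9, 30.7 and 21.4 CPM in Low and 39.5, 51.7, 37.8 and 38.5 CPM in High, the animals again in that order. The fractions did not overlap and the increase was 0.87 (SE 0.21, adjusted p 0.00635). It ranged over the animals from 0.30 in Male1 to 1.70 in Female2, whose High library was the highest of the 8. Without both libraries of Female2 it was 0.64 (adjusted p 0.0223), and under total counts it was 0.31 (adjusted p 0.223).

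Dhrs3 (chr4:144892827-144928209, plus strand), which reduces retinal back to retinol and is itself a known target of retinoic acid, had 43.4, 51.6, 47.6 and 37.4 CPM in Low and 57.5, 65.9, 57.8 and 63.6 CPM in High. All High libraries stood above all Low libraries, but the increase of 0.45 (SE 0.14, adjusted p 0.0218) was the smallest of the 4 that passed, and it turned to −0.12 (adjusted p 0.436) under total counts. It was 0.38 (adjusted p 0.0547) without the Low library of Male2, 0.42 (adjusted p 0.0556) without the High library of Female2 and 0.40 (adjusted p 0.0537) without the High library of Male2. With no filter on low counts it was 0.40 (adjusted p 0.100).

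An oxidising and a reducing enzyme, Rdh10 and Dhrs3, were then set against each other. Other enzymes of both kinds, such as Adh7 and Rdh12, were not part of this comparison. The log2 ratio of Rdh10 to Dhrs3 counts within a library, which no scaling can change, was −2.15 ± 0.49 in Low and −1.996 ± 0.168 in High (SD, n = 4), a difference of 0.15 with SD 0.33 over the animals. The exact two-sided permutation test of 4 against 4 gave p = 0.6, or 0.72 after adjustment over the 6 ratios examined, and the difference was −0.04 without the Low library of Female2 and 0.35 without the Low library of Male2. For Dhrs9 over Rdh10 the ratio was 1.147 ± 0.362 in Low and 1.44 ± 0.31 in High (exact permutation p = 0.286, adjusted 0.429, n = 4 each). That difference of 0.29 was 0.156 without the High library of Female2, 0.160 without the Low library of Male2 and 0.45 without the Low library of Male1.

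Aldh1a3 (chr7:66390890-66427517, minus strand), one of the enzymes that turn retinal into retinoic acid, stood at 15.0, 11.2, 7.89 and 7.21 CPM in the Low libraries of Female1, Female2, Male1 and Male2. In High it was at 18.8, 6.84, 12.7 and 0.206 CPM, the last of these from 4 counts. The animals went in different directions, 2 up and 2 down, and the mean levels of 10.3 ± 3.6 and 9.63 ± 7.97 CPM did not differ beyond their spread (log2 fold change −0.12, SE 0.71, adjusted p 0.915). Without the High library of Male2 the change was 0.29 (adjusted p 0.515), and without that of Female2 it was 0.10 (adjusted p 0.941). It was −1.11 (adjusted p 0.311) without the High library of Male1 and −0.49 (adjusted p 0.657) without that of Female1.

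The High library of Male2, which held the least Aldh1a3 and Stra6, also had the lowest summed levels of fibroblast, leukocyte, endothelial, muscle, and melanocyte and Schwann markers. The summed level of 8 fibroblast markers was 325 to 517 CPM in the Low libraries, and in High it was 486 CPM in Female1, 346 in Male1, 157 in Female2 and 41.2 in Male2. Of the 8 fibroblast markers 1 fell and 7 did not pass, and none was at 0 in any library. Leukocyte markers summed to 65.8 to 108 CPM in Low and 6.12 to 106 CPM in High, with Cd3e at 0 in the High libraries of Female2 and Male2. Endothelial markers ran from 11.4 to 22.1 CPM in Low and from 2.57 to 25.6 in High, muscle markers from 17.1 to 32.2 and from 1.34 to 44.4, and melanocyte and Schwann cell markers from 8.95 to 12.7 and from 2.01 to 15.6. In High all 5 sums followed the same order of animals as Aldh1a3. In Low Aldh1a3 was highest in Female1 and then Female2. The muscle sums (32.2 and 26.1 CPM) and the melanocyte and Schwann sums (12.7 and 12.2 CPM) were also highest in these. The other sums went otherwise. The fibroblast sum was highest in Male2, and the leukocyte sum was lowest in Female2 (65.8 CPM). The endothelial sum was higher in Male2 (18.9 CPM) than in Female2 (15.4 CPM). Of these lists 1 of 6 tested leukocyte markers and 1 of 5 tested melanocyte and Schwann markers fell and none rose. Their part in the values of Aldh1a3 and Stra6 was not tested.

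**Figure D2:**
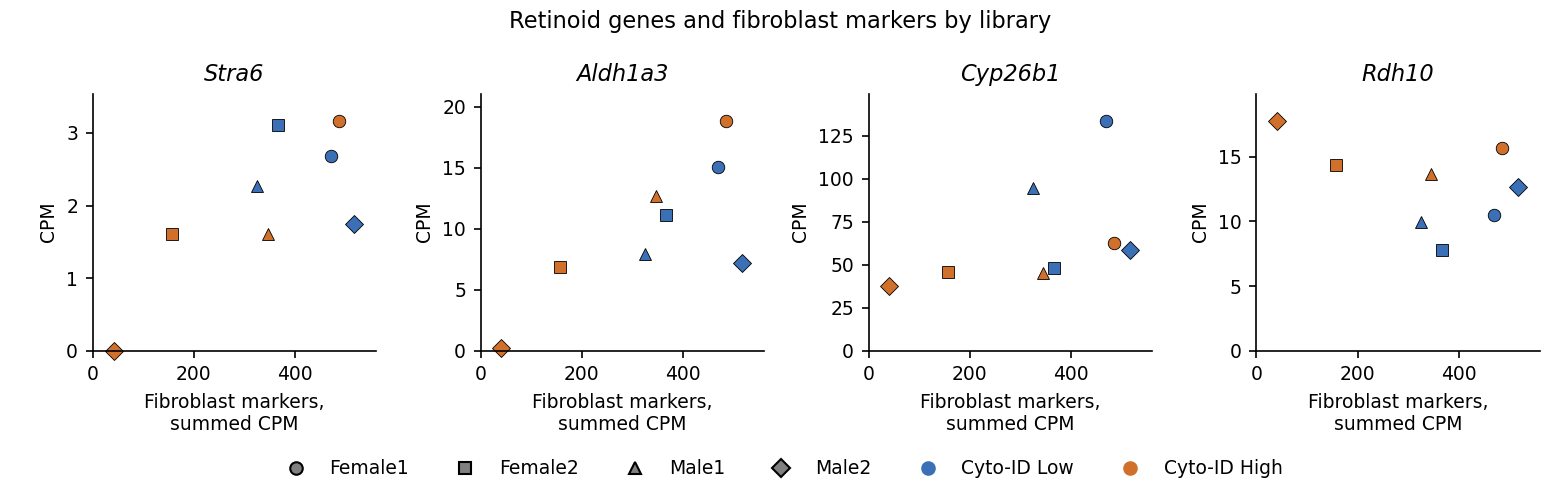
CPM of 4 retinoid genes (vertical axes) against the summed CPM of 8 fibroblast markers (horizontal axes), 1 point per library, coloured by fraction and shaped by animal. The High library of Male2, with 41.2 CPM of fibroblast markers, is the lowest for Stra6, Aldh1a3 and Cyp26b1 and the highest for Rdh10.

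Crabp1, the other cellular retinoic acid-binding protein, was singled out after its values were seen. It was also lowest in the High library of Male2, its High values ran from 0.206 to 8.18 CPM, and it did not pass (log2 fold change −0.47, adjusted p 0.597).

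Cyp26b1 (chr6:84571414-84593908, minus strand), which clears retinoic acid, had 134, 48.0, 94.8 and 58.4 CPM in the Low libraries and 62.9, 45.9, 45.4 and 37.7 CPM in the High libraries of the same animals. High was lower in every animal, but by 0.06 on the log2 scale in Female2 and by 1.09 in Female1, and the fractions overlapped. The change was −0.81 (SE 0.30, adjusted p 0.0468), close to the threshold. Leaving out any library but the Low library of Female2 took the adjusted p above 0.05, to 0.0545 to 0.213. The change was −0.49 without the Low library of Female1, which had the highest of these p-values, and −0.63 to −0.92 without any of the other 6. The adjusted p was 0.0655 under RLE size factors, 0.0528 under robust dispersion and 0.0735 under limma-voom, while a model with animals as blocks gave 0.0121. Without the Low library of Female2 the change was −1.03 (adjusted p 0.00562), and under total counts it was −1.34 (adjusted p 0.00655). Of the other Cyp26 genes, Cyp26a1 had 0 to 4 counts and Cyp26c1 0 to 2 counts per library, and neither was tested.

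Aldh1a3, an enzyme of synthesis, was set against Cyp26b1, an enzyme of breakdown. Other retinal dehydrogenases, such as Aldh1a1, are not in this ratio, so it does not stand for synthesis as a whole. For Aldh1a3 over Cyp26b1 the log2 ratio was −2.96 ± 0.62 in Low and −3.38 ± 2.59 in High (exact permutation p = 0.971, adjusted 0.971, n = 4 each). Male2 stood at −7.20 in High, and without that library the difference was 0.86 (exact permutation, adjusted p 0.171) in place of −0.42.

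Crabp2 (chr3:87948666-87953376, plus strand), the cytosolic carrier that hands retinoic acid to its receptors, showed the largest change of the 9. The Low libraries had 51.9, 57.3, 23.2 and 59.8 CPM (Female1, Female2, Male1, Male2), and the High libraries 444, 474, 372 and 460 CPM. The lowest High library lay far above the highest Low library, and the gene rose by 3.20 (SE 0.28, adjusted p 2.33e-05). It passed in all 19 alternative analyses, between 2.63 and 3.50. Per animal the rise was 2.94 to 4.00, the largest in Male1, whose Low library was the lowest.

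Fabp5, a fatty acid-binding protein that can also bind retinoic acid and hand it to the receptor Ppard, also rose, by 2.99 on the log2 scale (SE 0.28, adjusted p 3.04e-05), with mean levels of 356 ± 106 CPM in Low and 2823 ± 523 CPM in High. The log2 ratio of Crabp2 to Fabp5 counts was −2.92 ± 0.13 in Low and −2.68 ± 0.22 in High, a difference of 0.24 with SD 0.25 over the animals that did not pass (exact permutation p = 0.143, adjusted 0.286, n = 4 each). It was 0.155 without the High library of Female1 and 0.179 to 0.330 without any other library. The ratio of Crabp2 to Stra6 was 4.21 ± 0.71 in Low and 7.11 to 13.1 in High, where the highest value rests on the Stra6 count of 0. Without that library the difference was 3.49 in place of 4.84, and with all 8 the exact permutation test gave p = 0.0286, the smallest that 4 against 4 allows, or 0.0857 adjusted.

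Of the 2 receptors Rara fell and Rarg did not pass. Rara (chr11:98927818-98974942, plus strand), the most widely expressed RAR, stood at 19.4, 22.0, 21.7 and 28.0 CPM in the Low libraries of Female1, Female2, Male1 and Male2, and at 8.14, 10.97, 8.24 and 16.8 CPM in High. All High libraries were below all Low libraries, and Rara fell by 1.06 (SE 0.23, adjusted p 0.00344), with a call in all 19 alternatives. Rarg (chr15:102234938-102257517, minus strand), the RAR that prevails in stratified epithelia, had 237, 310, 319 and 326 CPM in Low and 247, 355, 302 and 505 CPM in High. These groups overlapped, and its change of 0.23 (SE 0.21, adjusted p 0.401) did not pass and turned to −0.37 (adjusted p 0.0570) under total counts. It was 0.046 (adjusted p 0.874) without the High library of Male2, and 0.13 to 0.35 without any other library, lowest without the Low library of Female1 and highest without the High library of Male1.

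Within a library the log2 ratio of Rarg to Rara counts was 3.61, 3.81, 3.87 and 3.54 in Low and 4.92, 5.01, 5.19 and 4.91 in High. The difference was 1.30 with SD 0.07 over the 4 animals, which makes Rarg on average 2.46 times as high relative to Rara, and it was above 0 in 4 of 4 animals under any scaling. The exact permutation test gave p = 0.0286, the smallest possible with n = 4 each, and 0.0857 after adjustment over the 6 ratios, so it did not pass the correction. The exact sign-flip test, which pairs the libraries of an animal, gave p = 0.125, the smallest it can give with 4 animals, or 0.375 adjusted. Leaving out any 1 library kept the difference between 1.24 and 1.35. Per kilobase of exon, Rarg made up 91.9% ± 0.8 of the summed level of Rara, Rarb and Rarg in Low and 96.5% ± 0.3 in High (SD, n = 4), and Rara 6.88% ± 0.72 and 2.93% ± 0.25.

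**Figure D3:**
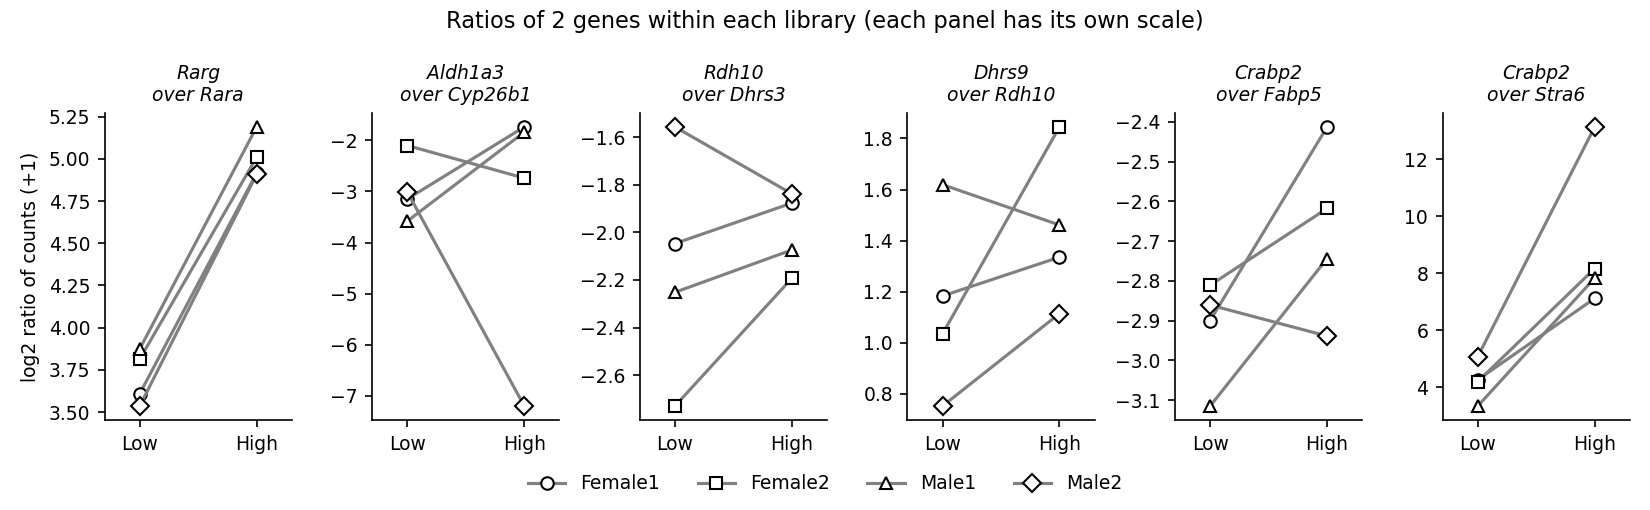
Log2 ratio of the counts of 2 genes within each library (1 added to each count), with a line joining the Low and High library of an animal, and a separate vertical scale in each panel. Rarg over Rara is higher in High in all 4 animals, while Aldh1a3 over Cyp26b1 reaches −7.20 in the High library of Male2.

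The start regions of the members were examined because retinoic acid receptors act on the promoters of several genes of their own pathway. RefSeq promoter windows on GRCm38.p6, from 250 bases before to 50 after a transcription start, were at hand for 6 of the 9 genes (15 windows for Rara, Rarg, Stra6, Dhrs3, Dhrs9 and Cyp26b1). They were searched on both strands for the receptor's hexamer, taken as AGGTCA or AGTTCA or GGGTCA or GGTTCA, and for direct repeats of it with spacers of 1, 2 or 5 bases (DR1, DR2, DR5), whose hexamers are also counted singly. A single hexamer occurred in 5 of the 15 windows, beside 43.7% of all 32851 windows, and a direct repeat in 0 of 15, beside 0.222% (DR1), 0.268% (DR2) and 0.0974% (DR5) of all. No match says only that these letters are not in these windows, and a match is a description of letters.

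The 5 stretches below lie before the start and outside annotated exons of their gene, and come from the gene's window with the most hexamers. They are shown for both receptors and for the enzymes known as retinoic acid targets or found to rise, and capitals mark the hexamer on either strand. The Rara window (chr11:98939461-98939710, plus strand) holds 4 hexamers and was chosen from 4 Rara windows, of which the others hold 0, 0 and 1. Of all windows, taken singly, 0.581% hold 4 or more. Rarg (chr15:102257523-102257772, minus strand) holds 1, Dhrs9 (chr2:69380212-69380444, plus strand) 1, and Dhrs3 (chr4:144892577-144892826, plus strand) and Cyp26b1 (chr6:84593909-84594060, minus strand) 0.
Rara: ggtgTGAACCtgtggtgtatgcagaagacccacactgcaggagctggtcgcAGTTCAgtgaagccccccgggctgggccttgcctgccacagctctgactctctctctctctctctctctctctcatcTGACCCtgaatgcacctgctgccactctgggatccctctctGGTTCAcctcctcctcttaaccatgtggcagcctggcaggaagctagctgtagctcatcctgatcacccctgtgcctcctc
Rarg: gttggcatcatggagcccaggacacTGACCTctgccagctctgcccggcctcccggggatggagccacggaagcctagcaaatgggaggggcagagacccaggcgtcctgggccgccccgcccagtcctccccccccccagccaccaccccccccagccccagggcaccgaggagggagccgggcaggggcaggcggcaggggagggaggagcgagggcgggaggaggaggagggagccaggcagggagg
Dhrs9: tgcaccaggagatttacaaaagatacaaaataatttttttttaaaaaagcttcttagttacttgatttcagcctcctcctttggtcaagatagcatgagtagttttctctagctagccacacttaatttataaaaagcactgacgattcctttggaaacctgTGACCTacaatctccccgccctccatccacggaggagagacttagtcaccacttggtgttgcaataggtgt
Dhrs3: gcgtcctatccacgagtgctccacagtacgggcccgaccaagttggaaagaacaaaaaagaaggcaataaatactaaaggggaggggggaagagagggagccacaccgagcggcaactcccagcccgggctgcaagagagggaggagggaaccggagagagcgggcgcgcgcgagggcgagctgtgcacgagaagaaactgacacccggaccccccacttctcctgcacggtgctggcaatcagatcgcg
Cyp26b1: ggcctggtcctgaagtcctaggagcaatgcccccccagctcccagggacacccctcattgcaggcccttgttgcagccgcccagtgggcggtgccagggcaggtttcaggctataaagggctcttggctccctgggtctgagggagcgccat

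A DR5 was present in the related receptor gene Rarb, a classical target of retinoic acid, at 53 to 37 bases before its RefSeq start, in a stretch that GENCODE annotates as exon. It is shown for comparison (chr14:16575508-16575534, minus strand), with the hexamers of the repeat in capitals.
Rarb: ggaagGGTTCAccgaaAGTTCActcgc

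Rarb itself fell from 4.79 ± 0.44 to 2.40 ± 0.75 CPM (log2 fold change −1.01, SE 0.25, adjusted p 0.00807). Exons of Top2b and Gm48162 on the other strand overlap 38.4% of its exon bases, and since it is not stated whether the counting used the strand, its counts are uncertain. The partner receptor Rxra, with means of 216 ± 40 CPM (Low) and 285 ± 77 CPM (High), did not pass at 0.38 (SE 0.21, adjusted p 0.177). Its change was −0.21 (adjusted p 0.325) under total counts and it passed without the Low library of Female2 (0.56, adjusted p 0.0313). Leaving out any other library gave 0.22 to 0.52, the lowest without the High library of Male2 (adjusted p 0.423). Rxrb fell by 0.53 (SE 0.12, adjusted p 0.00596), from 58.5 ± 5.2 to 40.9 ± 7.3 CPM, and its change under total counts was −1.09. Rxrg had 0 to 7 counts per library and was not tested. Ppard rose by 0.97 (SE 0.16, adjusted p 0.000865), from 86.95 ± 11.09 to 171 ± 41 CPM. It passed in all 19 alternatives, between 0.39 and 1.08.

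Levels of the 9 genes were set against each other per kilobase of exon. In Low the order was Rarg at 69.9 ± 9.6 CPM per kilobase, Crabp2 at 36.4 ± 12.8, Cyp26b1 at 15.6 ± 7.3, Dhrs3 at 15.4 ± 2.1, Dhrs9 at 5.36 ± 1.43, Rara at 5.22 ± 0.84, Rdh10 at 2.46 ± 0.49, Aldh1a3 at 2.24 ± 0.78 and Stra6 at 0.421 ± 0.100. The ranges of Crabp2 and Cyp26b1 overlapped, as did those of Cyp26b1 and Dhrs3, of Dhrs9 and Rara, and of Rdh10 and Aldh1a3. In High, Crabp2 stood first with 331 ± 34 CPM per kilobase, ahead of Rarg at 82.6 ± 26.1, Dhrs3 at 20.9 ± 1.4, Dhrs9 at 9.78 ± 1.55, Cyp26b1 at 8.96 ± 1.99, Rdh10 at 3.69 ± 0.43, Rara at 2.53 ± 0.93, Aldh1a3 at 2.09 ± 1.73 and Stra6 at 0.274 ± 0.222. There the ranges of Dhrs9 and Cyp26b1 overlapped, and so did those of each neighbouring pair from Rdh10 to Stra6. With the longest transcript as the length Cyp26b1 and Dhrs3, Dhrs9 and Rara, and Rdh10 and Aldh1a3 changed places in Low, as did Dhrs9 and Cyp26b1 in High.

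The wider pathway was taken from a list of 56 other retinoid genes, of which 41 were tested, 21 rose and 9 fell. Under total counts 15 rose and 14 fell, beside 12.6% of all genes as higher and 49.1% as lower with that scaling. Their median log2 fold change was 0.42, beside −0.09 over all genes, and with TMM the shares over all genes were those given above. By role, 5 of 7 tested retinal reductases and related enzymes rose and 0 fell, and 3 of 6 tested retinol-oxidising enzymes rose and 2 fell. Among the 3 tested retinol-binding proteins 2 rose, among 5 tested genes of uptake and carotenoid cleavage 1 rose and 3 fell, and among 8 coregulators 4 rose and 2 fell.

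The largest increase among them was in Rbp2, a cellular retinol-binding protein best known from the intestine, which had 22.9, 38.5, 8.76 and 56.7 CPM in Low and 441, 528, 414 and 662 CPM in High. No library of one fraction reached the other, and the log2 fold change was 4.01 (SE 0.51, adjusted p 0.000167). In Low its 2 lowest libraries, Male1 and Female1, were also the lowest for Crabp2 and for the summed suprabasal markers, at 8745 and 12770 CPM beside 19390 and 25290 CPM in the other Low libraries. The part of the suprabasal markers in this pattern was not tested.

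Some of the enzymes that act on retinol or retinal, and some relatives of these, rose as well. Adh1, an alcohol dehydrogenase that oxidises retinol, rose by 3.36 (SE 0.48, adjusted p 0.000346), from 6.16 ± 4.51 to 62.4 ± 27.1 CPM. The epidermal retinol dehydrogenase Sdr16c5 and its neighbour Sdr16c6 reached 41.3 ± 4.9 and 45.1 ± 13.1 CPM in High, increases of 2.58 (SE 0.23) and 3.27 (SE 0.33). The retinal reductases Rdh12 and Rdh11 reached 441 ± 72 and 113 ± 17 CPM, increases of 2.39 (SE 0.18) and 1.44 (SE 0.14). Aldh1a7, a close relative of the retinal dehydrogenase Aldh1a1, rose by 3.52 (SE 0.36), from 38.1 ± 18.9 to 436 ± 102 CPM. Reads of these similar genes may have been assigned to either, and RNA levels do not show whether Aldh1a7 acts on retinal. Exons of Gm16559 overlap 6.09% of those of Adh1 on the other strand.

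Within the Aldh1a family Aldh1a3 was a minor part. Per kilobase it made up 8.28% ± 3.67 of the summed Aldh1a1, Aldh1a2, Aldh1a3 and Aldh1a7 in Low and 0.0159% to 2.33% in High. Aldh1a7 made up 60.7% ± 12.9 in Low and 91.3% ± 1.4 in High, and Aldh1a1 30.2% ± 10.3 and 7.62% ± 0.45 (SD, n = 4). A share also moves with the other genes of the sum, and Aldh1a3 itself did not pass. The shares depend on the length used, and Aldh1a1 has 4937 exon bases but a longest transcript of 2358. Aldh1a1 itself, described after its values were seen, rose by 1.09 (SE 0.18, adjusted p 0.000793), from 40.9 ± 7.3 to 86.3 ± 16.8 CPM. Adh7, the retinol-oxidising alcohol dehydrogenase of the upper digestive tract, was picked out after its values were seen. It was abundant in both fractions, 713 ± 170 CPM (Low) and 867 ± 294 CPM (High), and did not pass (log2 fold change 0.28, SE 0.28, adjusted p 0.455).

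Of the genes that fell, Ncoa7 changed by −2.77 (SE 0.18, adjusted p 1.27e-05), from 17.5 ± 3.8 to 2.54 ± 0.32 CPM, with 0.738% of its exon bases shared with Hint3. Adh5 and the lipoprotein and carotenoid receptor Scarb1 changed by −0.86 (SE 0.11) and −0.77 (SE 0.18).

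**Figure D4:**
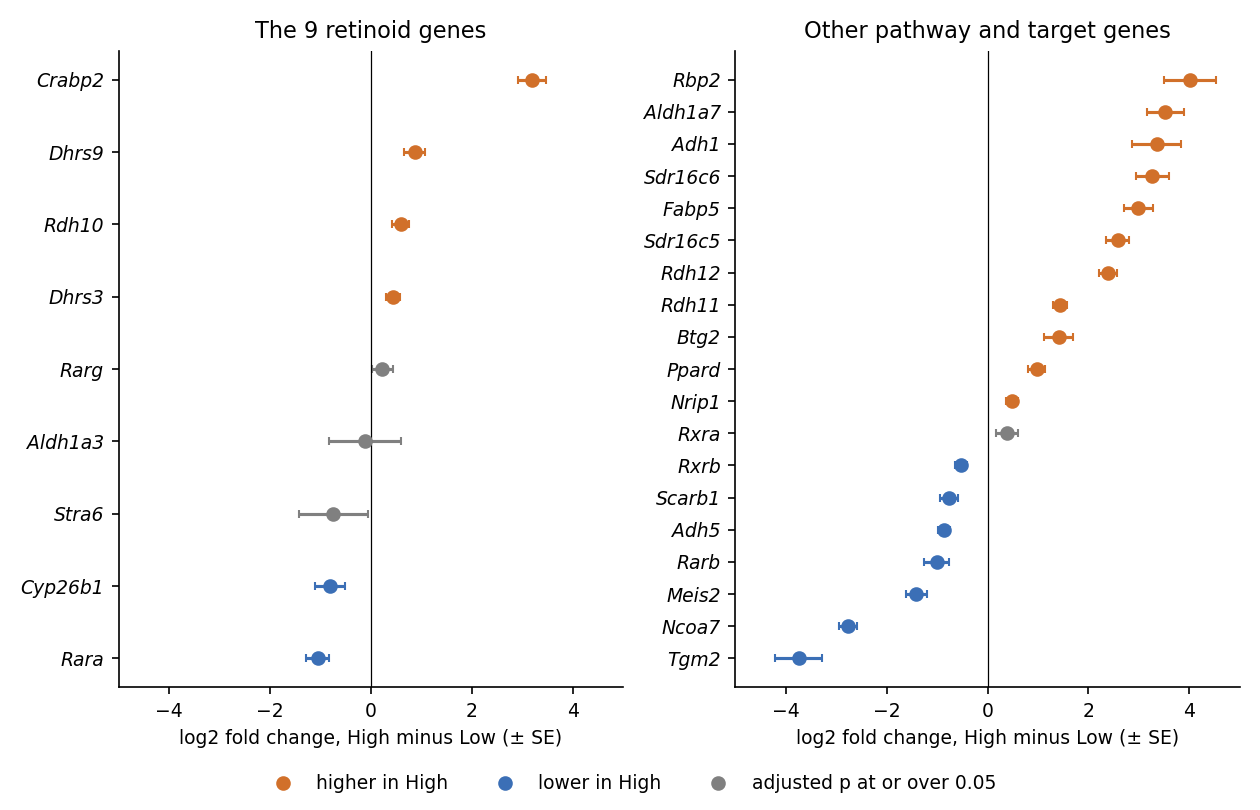
Log2 fold change of Cyto-ID High minus Low (horizontal axes, ± SE) from edgeR for the 9 retinoid genes (left) and for other named genes of the pathway and its targets (right), coloured by call. Crabp2 at 3.20 and Rbp2 at 4.01 lead the panels, and under scaling by total counts only Dhrs3, Rarg, Nrip1 and Rxra turn negative.

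Textbook targets of retinoic acid outside the 9 genes did not share a direction. Of 14 listed genes 10 were tested, 3 rose, 4 fell and 3 did not pass, beside 48.7% of all genes passing, 23.4% as higher and 25.3% as lower. Their median log2 fold change was −0.12, beside −0.09 over all genes. Btg2, an antiproliferative gene, rose by 1.41 (SE 0.29, adjusted p 0.00251), from 543 ± 110 to 1458 ± 543 CPM. The coregulator Nrip1 rose by 0.48 (SE 0.12, adjusted p 0.00776). Under total counts the changes were 0.80 for Btg2 and −0.08 for Nrip1. Tgm2, the tissue transglutaminase, fell from 33.1 ± 17.8 to 2.47 ± 0.78 CPM (log2 fold change −3.74, SE 0.46, adjusted p 0.000134), and exons of Rprd1b and Gm20412 overlap 21.8% of its own on the other strand. The homeobox gene Meis2 changed by −1.41 (SE 0.20, adjusted p 0.000355). Under total counts, and also with no filter on low counts, 1 of the targets passed as higher in place of 3. Over all genes 12.6% and 11.5% were higher in these settings.

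Genes with the most similar pattern were looked up by Pearson's r of log2 CPM over the 8 libraries, which share animals and sorting and so give a description only. For Crabp2 these were Endou and Spns2, both with r = 0.999. For Rara they were Ogfr (0.994) and Psme1 (0.990), for Rarg Strn4 (0.991) and Myo1c (0.986), for Dhrs9 Rab9 (0.988) and Ube2n (0.968), and for Rdh10 Ier5 (0.985) and Maoa (0.983). Dhrs3 was closest to Exosc7 (0.959) and D6Wsu163e (0.955), and Cyp26b1 to Nfat5 (0.962) and Rps27a (0.954). Stra6 was closest to the fat-cell and endothelial fatty acid-binding protein Fabp4 and the red-cell globin Hbb-bs (both 0.986). Aldh1a3 was closest to the calprotectin subunit S100a8 and to Cstdc5 (both 0.999). For Stra6 and Aldh1a3 the log2 CPM of the High library of Male2 lay far below the others. In that animal High minus Low was −4.70 and −4.72, so these r values rest largely on that library.

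The dependence of the Cyto-ID difference on sex was tested as an interaction. It was called for 0 of the 9 genes and for 0% of 17344 genes (edgeR's quasi-likelihood test, adjusted p of 1 for each of the 9), and 19 genes reached an unadjusted p under 0.05, none of them among the 9, where that level alone would give 867. With the animal as a block the counts were 0 called and 38 at an unadjusted p under 0.05. These p-values do not show that the sexes respond alike.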

How the data were processed

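The authors deposited raw counts per gene symbol for 8 libraries. The submitters' processing notes name STAR 2.7.3, DESeq2 and GRCm38, with no roles, and the counting tool, annotation and strandedness are not given in the sources used here. Every column matched 1 sample by animal and fraction. The analysis ran in edgeR 4.0.16 under R 4.3.3 (filterByExpr, TMM, glmQLFit, glmQLFTest, sex as covariate), with standard errors derived from the F statistic and log2 CPM with a prior count of 2. No columns belonged to other samples. Ratios used counts plus 1 and exact two-sided permutation tests in scipy 1.17.1, adjusted over 6 ratios. Positions, lengths and overlaps came from GENCODE M21 (GRCm38). The fits were tested on simulated counts.

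The members and lists were chosen with earlier results of these data known. Named beside the 9 members were pathway and target genes that passed with a mean of at least 5 CPM, up to 8 per direction and list, the receptors and Fabp5, and for likeness the 2 closest genes with a mean of at least 10 CPM. Some genes that the rule names are not reported here. Lists of basal, suprabasal, fibroblast, leukocyte, endothelial, muscle, melanocyte and Schwann, and gastric markers were summed. Each animal names 1 library of each fraction, and its libraries were taken as a pair from 1 cell suspension. Deviations from the fraction means correlated across genes by 0.43 (Female1), 0.32 (Female2), −0.016 (Male1) and 0.28 (Male2), and libraries of different animals by −0.37 to 0.35, the highest for High Male1 with Low Female1. The pairs therefore rest on the labels. Alternatives were RLE size factors, total counts, other filters, robust dispersion, DESeq2 1.42.0, limma-voom (limma 3.58.1), a fit without sex, animals as replicate blocks, each library left out, and Male2 or Female2 left out.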

Additional observations from a re-analysis of the deposited data

Results flagged for a closer look

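Dixon's test of the extreme library was run on 88 sets of values from 4 libraries. About 1 in 20 sets would be singled out by chance, and 5 were. Dhrs9 was at 51.7 CPM in the High library of Female2, where the other High libraries had 37.8 to 39.5. Sdr16c6 was at 64.7 CPM in the same library, beside 37.3 to 40.3 in the others. The 6 gastric markers summed to 108 CPM in that library and to 17.3 CPM in the Low library of Female2, while the other 6 libraries held 0.211 to 0.978. The part of the gastric transcripts in the Dhrs9 and Sdr16c6 values was not tested. Without both libraries of Female2 Dhrs9 rose by 0.64 (edgeR adjusted p 0.0223) and Sdr16c6 by 3.17 (edgeR adjusted p 0.00218). Ppard was at 233 CPM in the High library of Male2, beside 148 to 153 in the other High libraries.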

How the results depend on the processing

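Rara and Crabp2 passed, and Stra6 did not, under each alternative that could be computed for them, and 6 of the 9 genes differed in call or sign in at least 1. Among the 9 genes, 1 rose under total counts, beside 12.6% of all genes. Under RLE size factors, robust dispersion, limma-voom and without both Male2 libraries 1 fell, beside 20.7% to 25.4% of all genes as lower. Leaving out 1 library at a time gave 3 to 4 that rose and 1 to 2 that fell. Over all genes 19.6% to 23% were then higher and 20.6% to 24.1% lower. Under total counts 15 other pathway genes rose and 14 fell, and 1 target rose, as also with no filter on low counts. Total counts turned Rarg to −0.37, Dhrs3 to −0.12, Nrip1 to −0.080 and Rxra to −0.21. Aldh1a3 was 0.26 without both Male2 libraries, 0.035 without both Female2 libraries and −1.11 to 0.29 with 1 library left out. With 1 library left out the difference in the log2 ratio of Aldh1a3 to Cyp26b1 was −0.96 to 0.86, and that of Rdh10 to Dhrs3 −0.043 to 0.35. Beyond what these settings do by construction, the cause was not tested.

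With animals as a replicate block 4 of the 9 genes rose and 2 fell, beside 25.4% and 28.5% of all genes. In that fit 9336 genes passed in place of 8440, and the block changed no call among the 9. Over all settings 7269 to 10708 genes passed, the fewest without the Low library of Male1 and the most under total counts. No value with at least 10 counts in every library exists for Stra6 and Aldh1a3, which had 0 and 4 counts in the High library of Male2, where depth allows Stra6 up to 0.154 CPM.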
